A study of Bos taurus with 18 samples.

Results

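Genes of mitosis and of the G2/M transition were followed through primary, senescent and immortalized bovine fibroblast cultures. The members are 50 symbols, of which 45 were found by gene name among the 24596 genes of the expression table. INCENP, MAD2L1, CENPA, KIF4A and NCAPG were not matched and were not analysed here. All 45 genes found passed the filter on low counts in the Simmental-like libraries, where 13099 genes were tested. The study followed cattle fibroblasts that became immortal spontaneously during prolonged culture, by RNA sequencing of 18 libraries. A Simmental-like and a Holstein-like line were each sampled as a primary culture, at the senescent stage and as an immortalized line, with 3 libraries per stage. The labels give no treatment, transgene, age or sex for any group, and the Simmental-like cell lines are PBF-13 for the primary culture, Sn-BF-13 for the senescent stage and HUN-BF-13 for the immortalized line. In the library names the primary stage is BDF-20-3B-4, the senescent stage BDF-20-MultiXray-Ctrl and the immortalized stage BF-13, so stage and culture cannot be told apart. Replicates carry the word biological, but nothing says that they came from separate cultures, so p-values measure the spread among these libraries, which may be technical.

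Entry into mitosis is driven by the kinase CDK1 with its B-type cyclins, switched on by CDC25 phosphatases and followed by Polo-like and Aurora kinases. The transcription factors FOXM1 and MYBL2 switch on most of these genes late in the cell cycle, and the DREAM complex, which contains the pocket protein p130, holds them down in resting cells. Condensin compacts the chromosomes, kinetochores attach them to the spindle, the checkpoint delays anaphase until all are attached, and separase then cuts the cohesin between sister chromatids. Fibroblasts that have become senescent are known for a lasting exit from the cell cycle, in which most genes of this module are usually low.

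Simmental-like libraries held 18.2 to 23.2 M counts each (M for 1e+06) and Holstein-like libraries 1.42 to 14.1 M. The 10 fibroblast markers took 4.12% to 6.62% of the counts in the Simmental-like libraries, while markers of muscle, heart, liver and kidney were near 0 there. The chi-square per gene between libraries of a stage, which is near 1 for counting noise alone, was 1.36 between senescent libraries 1 and 2 and 41.8 to 370 between primary libraries. Levels below are counts per 1000000 counts of the TMM-scaled library (CPM), a scaling that sets the bulk of genes level between libraries, unless the total count of the library is named as the scale. TMM factors were 0.725 to 0.915 in primary, 1.16 in senescent and 1.03 to 1.04 in immortalized libraries. Changes are log2 differences with their standard error (SE) from edgeR's quasi-likelihood test, with Benjamini-Hochberg adjustment over all tested genes and a threshold of 0.05. A further fit, added after seeing the data, carried an offset on the genomic span of each gene in each library (the span offset), and is named where it ended a call.

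The mitotic module did not move one way between primary and senescent libraries. Under TMM scaling 12 of the 45 genes were higher in the senescent libraries and 10 were lower, shares of 26.7% and 22.2%. Of all genes tested, 28.3% were higher and 29.7% lower, so both shares lay near the background. The median change was 0.03 for the mitotic genes and 0.01 for all genes. The higher genes included CENPE, CDC25C, KIF18A, SMC2 and TOP2A, and the lower ones AURKB, BUB3, PTTG1, CCNA2 and PLK1. In bulk RNA, fewer cells of a type and less RNA per cell cannot be told apart.

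**Figure D1:**
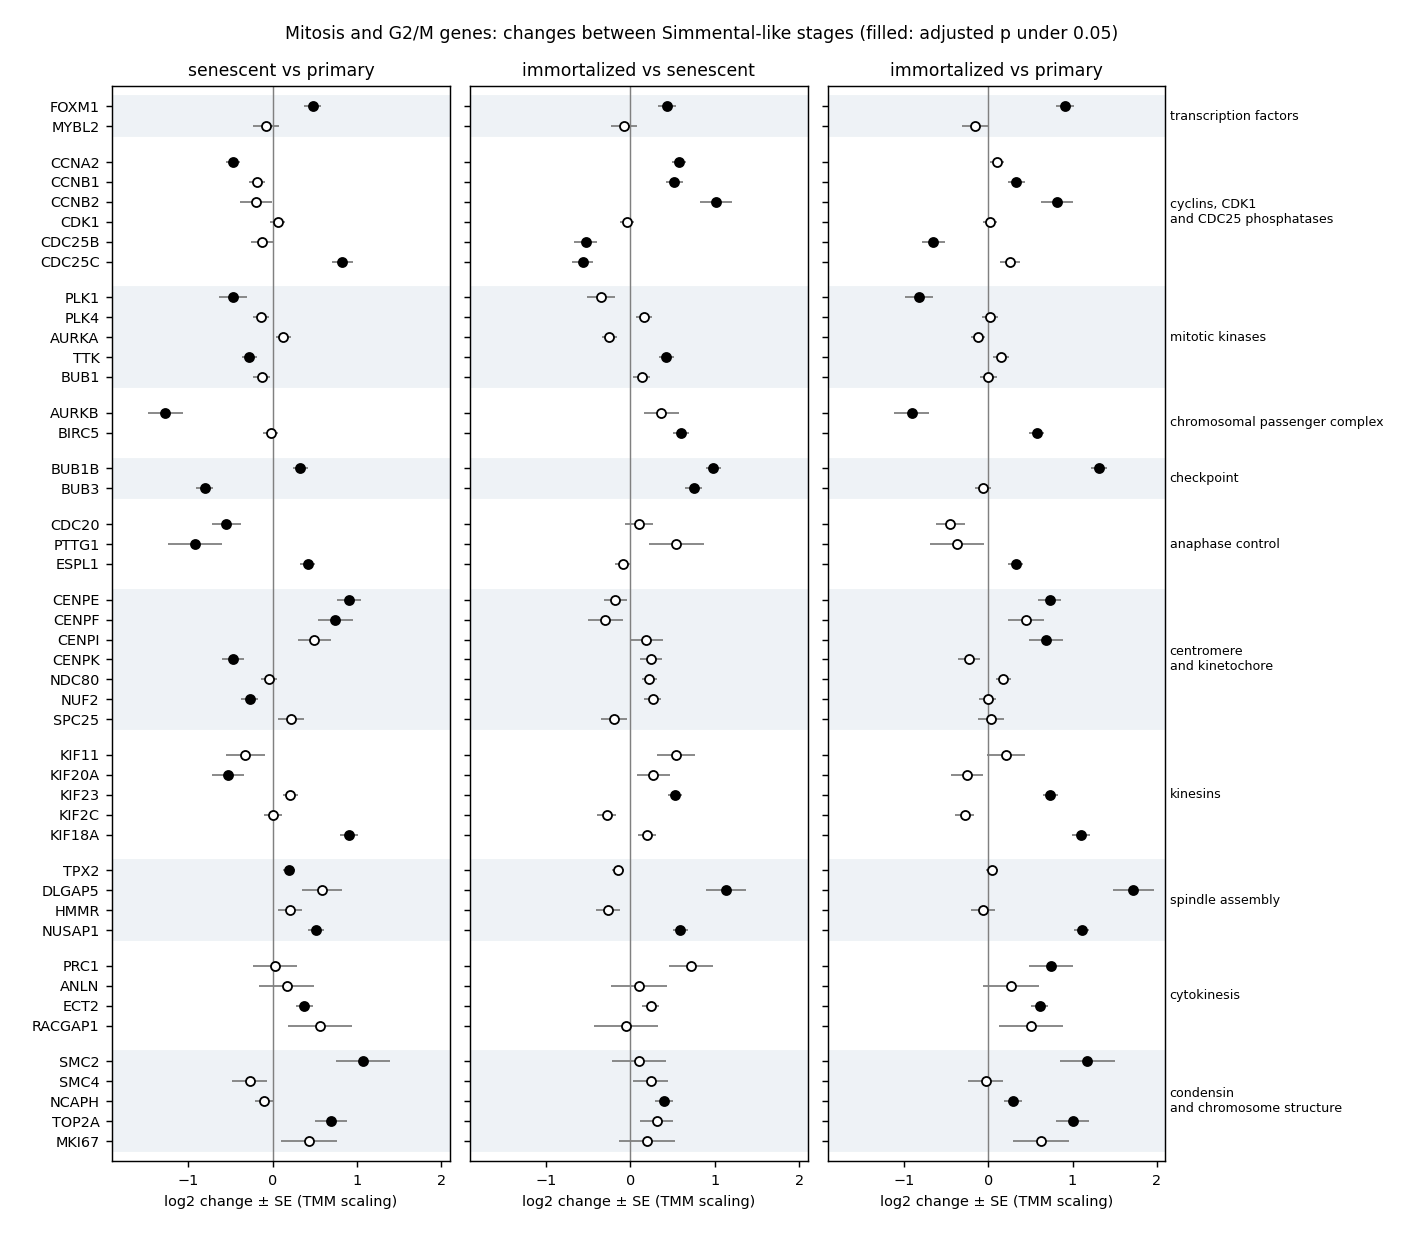
Log2 change ± SE of each of the 45 mitotic genes (rows, grouped by role) between the Simmental-like stages under TMM scaling, from fits on 3 libraries per stage. Filled points passed an adjusted p of 0.05: 12 genes were higher and 10 lower in senescent than in primary libraries, and AURKB had the lowest change at -1.27.

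The choice of scale set the direction of much of the module. Scaled by total count, 28 of the 45 genes were higher in senescent than in primary libraries and 1, AURKB, was lower. These shares were 62.2% and 2.22%, against 45.5% and 14% of all genes. That scale moved the median of all genes to 0.47 and the median of the mitotic genes to 0.48, so the medians were again close. The share of mitotic genes called higher lay above that of all genes, and the share called lower lay below it. The sign of the change differed between the scales for 15 of the 45 genes, among them PLK1, TTK, CCNB1, CCNB2, MYBL2 and SMC4. Past the threshold under both scales were 13 genes, under TMM scaling alone 9, under total count alone 16 and under neither 7. Every one of the 12 genes higher under TMM scaling was also higher by total count. As a share of total counts, the summed level of the 45 genes was 3384, 4594 and 4208 CPM in primary, 5882, 5933 and 5799 CPM in senescent and 6285, 6260 and 6034 CPM in immortalized libraries. By that measure no senescent library was as low as a primary one. With TMM scaling over all 18 libraries the sums were 3637, 4020 and 3762 CPM in primary, 3954, 3954 and 3868 CPM in senescent and 4703, 4735 and 4598 CPM in immortalized libraries. On that scale the primary and senescent libraries overlapped.

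**Figure D2:**
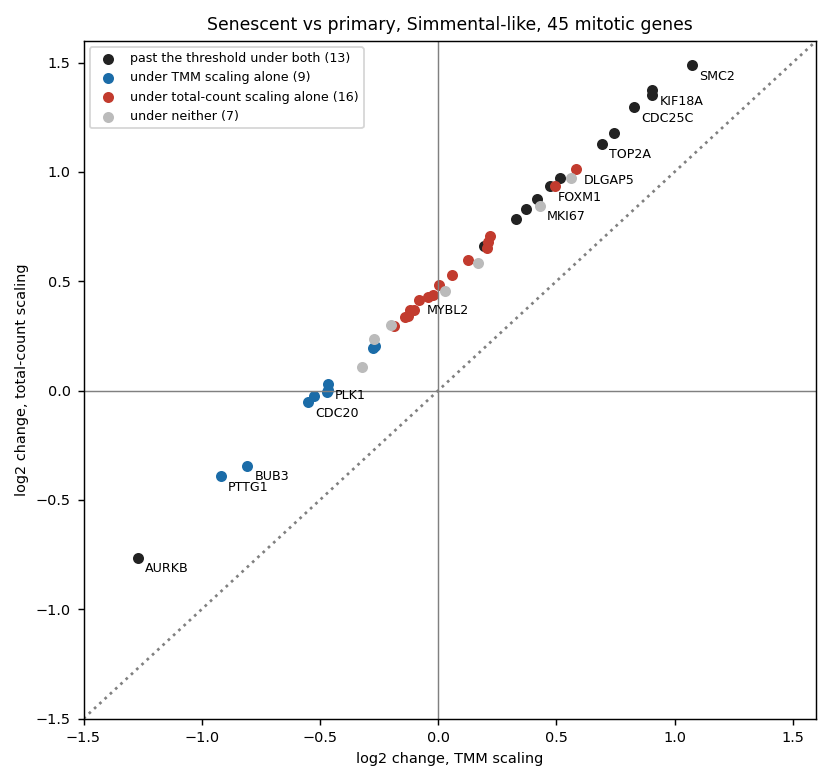
Log2 change from primary to senescent Simmental-like libraries of the 45 mitotic genes under TMM scaling (horizontal) and under total-count scaling (vertical), with colours for the scale under which each passed the threshold. Points lie along a line above the dotted line of equal values, and AURKB is lower under both scales.

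From the senescent to the immortalized libraries, 12 of the 45 genes were higher and 2 lower under TMM scaling, 26.7% and 4.44% of the module. Of all genes, 16.4% were higher and 16.1% lower. The median change was 0.22 for the mitotic genes and -0.0018 for all genes. By total count 9 were higher and 6 lower, beside 11.5% and 20.6% of all genes, with medians of 0.06 and -0.16. From primary to immortalized libraries 17 genes were higher and 3 lower under TMM scaling, 37.8% and 6.67%, beside 24.9% and 25.5% of all genes. The median there was 0.22 against -0.0014, and by total count 26 were higher and 3 lower, beside 35% and 16% of all genes. The 3 comparisons share libraries pairwise, so their values are given side by side and not as independent evidence.

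Of the 2 transcription factors, FOXM1 rose at each stage and MYBL2 did not pass the test. FOXM1, a forkhead factor that activates G2/M genes, stood at 22.8, 24.8 and 25.2 CPM in primary, 32.8, 32.8 and 35.5 CPM in senescent and 48.3, 47.1 and 41.4 CPM in immortalized libraries. No library of one stage reached the levels of another. Its change was 0.47 ± 0.10 (SE, adjusted p = 0.00516) from primary to senescent, 0.43 ± 0.10 (adjusted p = 0.0124) from senescent to immortalized and 0.91 ± 0.10 (adjusted p = 0.000151) from primary to immortalized. The middle one of these, senescent to immortalized, was not past the threshold by total count (0.27, adjusted p = 0.173), nor without senescent library 1, senescent library 2 or immortalized library 2 (adjusted p = 0.0600, 0.0605 and 0.0574). MYBL2, the B-MYB partner of the MuvB core, stood at 338, 215 and 250 CPM in primary, 244, 252 and 263 CPM in senescent and 232, 239 and 250 CPM in immortalized libraries. The stages overlapped, and its change to the senescent stage was -0.08 ± 0.15 (adjusted p = 0.673) under TMM scaling but 0.41 (adjusted p = 0.00819) by total count.

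Among the cyclins, CDK1 and the CDC25 phosphatases, CCNA2 fell and CDC25C rose in the senescent libraries, while CDK1 did not pass the test under TMM scaling. CDK1, the kinase that drives mitotic entry, stood at 50.7, 46.8 and 49.1 CPM in primary, 51.6, 51.0 and 50.2 CPM in senescent and 50.8, 49.7 and 48.3 CPM in immortalized libraries. Its TMM-scaled changes lay between -0.04 and 0.06 with an SE of 0.085, and by total count it was 0.53 higher in senescent than in primary libraries (adjusted p = 0.00204). CCNA2, cyclin A2, which acts in S phase and early mitosis, stood at 114, 118 and 130 CPM in primary, 87.2, 85.1 and 88.0 CPM in senescent and 128, 129 and 130 CPM in immortalized libraries. The senescent libraries were below all others. CCNA2 fell by 0.47 ± 0.08 to the senescent stage (adjusted p = 0.00178) and was 0.57 ± 0.08 higher in immortalized than in senescent libraries (adjusted p = 0.00114). By total count its change to the senescent stage was -0.01 (adjusted p = 0.955), and with the span offset -0.16 (adjusted p = 0.318).

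The mitotic cyclins were highest in the immortalized libraries. CCNB1, the main cyclin partner of CDK1 in mitosis, stood at 181, 144 and 167 CPM in primary, 141, 144 and 148 CPM in senescent and 203, 203 and 215 CPM in immortalized libraries. The immortalized libraries lay above both other stages, which overlapped. CCNB1 was 0.52 ± 0.10 higher in immortalized than in senescent libraries (adjusted p = 0.00417) and 0.34 ± 0.10 higher than in primary ones (adjusted p = 0.0206). The second of these missed the threshold without immortalized library 2 (adjusted p = 0.0539) or 3 (adjusted p = 0.0711). Its change from primary to senescent, -0.18 ± 0.10 (adjusted p = 0.137), passed the threshold without primary library 2 (-0.27, adjusted p = 0.0166) and was 0.29 by total count (adjusted p = 0.0167). CCNB2, the second B-type cyclin, stood at 98.9, 54.6 and 73.8 CPM in primary, 65.2, 65.6 and 67.0 CPM in senescent and 121, 135 and 143 CPM in immortalized libraries. It was 1.01 ± 0.19 higher in immortalized than in senescent libraries (adjusted p = 0.00446), and 0.81 ± 0.19 higher than in primary ones (adjusted p = 0.00794).

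The phosphatases that activate CDK1 moved apart. CDC25C, which acts at mitotic entry, stood at 11.0, 10.9 and 9.34 CPM in primary, 17.8, 18.4 and 19.4 CPM in senescent and 13.3, 11.5 and 12.7 CPM in immortalized libraries. It was highest in all 3 senescent libraries. CDC25C rose by 0.83 ± 0.12 to the senescent stage (adjusted p = 0.000682) and was 0.57 ± 0.12 lower in immortalized than in senescent libraries (log2 change -0.57, adjusted p = 0.00754). CDC25B, which starts CDK1 activation in G2, stood at 111, 80.4 and 79.1 CPM in primary, 82.9, 81.4 and 84.4 CPM in senescent and 58.6, 58.5 and 55.5 CPM in immortalized libraries. The immortalized libraries were below all others. Its change was -0.12 ± 0.14 from primary to senescent (adjusted p = 0.463), -0.53 ± 0.14 from senescent to immortalized (adjusted p = 0.0181) and -0.65 ± 0.14 from primary to immortalized (adjusted p = 0.00442). The change from senescent to immortalized missed the threshold without any 1 of the 3 senescent (adjusted p = 0.0595, 0.0545 and 0.0612) or the 3 immortalized libraries (adjusted p = 0.0507, 0.0600 and 0.0666).

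Of the 5 mitotic kinases, PLK1 and TTK were lower in senescent than in primary libraries under TMM scaling, 40% beside 29.7% of all genes. By total count PLK4, AURKA and BUB1 were higher, 60% beside 45.5% of all genes. PLK1, the Polo-like kinase of mitotic entry and spindle assembly, stood at 171, 106 and 121 CPM in primary, 94.8, 93.5 and 99.1 CPM in senescent and 73.0, 72.9 and 79.3 CPM in immortalized libraries. The stages did not overlap, and primary library 1 was well above its fellows. PLK1 fell by 0.47 ± 0.16 from primary to senescent (adjusted p = 0.0378) under TMM scaling, whereas its change was 0.03 by total count (adjusted p = 0.834) and -0.26 with the span offset (adjusted p = 0.068). The fall was 0.25 without primary library 1 (log2 change -0.25, adjusted p = 0.0162). It missed the threshold without any 1 of the 3 senescent (adjusted p = 0.0973, 0.102 and 0.0781) or the 3 immortalized libraries (adjusted p = 0.0553, 0.0576 and 0.0513). From primary to immortalized PLK1 fell by 0.82 ± 0.17 (adjusted p = 0.00362), and by 0.49 by total count (adjusted p = 0.00628). TTK, the MPS1 kinase that starts checkpoint signalling, had a change of -0.28 to the senescent stage (adjusted p = 0.0315) and of 0.43 from senescent to immortalized (adjusted p = 0.00798), the latter 0.26 by total count (adjusted p = 0.0916). By total count the change of TTK to the senescent stage was 0.20 (adjusted p = 0.142), and under TMM scaling it missed the threshold without primary library 3, any 1 senescent library or immortalized library 2 (adjusted p = 0.0577 to 0.0972). PLK4, which licenses centriole copying, AURKA, the spindle pole Aurora kinase, and the checkpoint kinase BUB1 did not pass the test in any of the 3 comparisons under TMM scaling, with changes from -0.25 to 0.16.

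AURKB, the Aurora kinase of the chromosomal passenger complex that corrects faulty attachments, had the largest fall of the module. It stood at 95.8, 50.8 and 62.5 CPM in primary, 29.9, 27.5 and 29.2 CPM in senescent and 36.0, 37.9 and 37.7 CPM in immortalized libraries. Primary libraries were all above the others, and primary library 1 was the highest. AURKB fell by 1.27 ± 0.21 to the senescent stage (adjusted p = 0.00126) and by 0.77 by total count (adjusted p = 0.0024). It remained 0.90 ± 0.21 lower in immortalized than in primary libraries (log2 change -0.90, adjusted p = 0.00695). Its change from senescent to immortalized was 0.37 ± 0.21 (adjusted p = 0.214), and 0.36 without primary library 1, with an adjusted p of 0.00653. BIRC5, the survivin subunit of the same complex, stood at 121, 129 and 143 CPM in primary, 132, 129 and 127 CPM in senescent and 200, 199 and 187 CPM in immortalized libraries. Primary and senescent libraries overlapped (change -0.02 ± 0.09, adjusted p = 0.844), and BIRC5 was 0.60 ± 0.09 higher in immortalized than in senescent libraries (adjusted p = 0.00129).

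**Figure D3:**
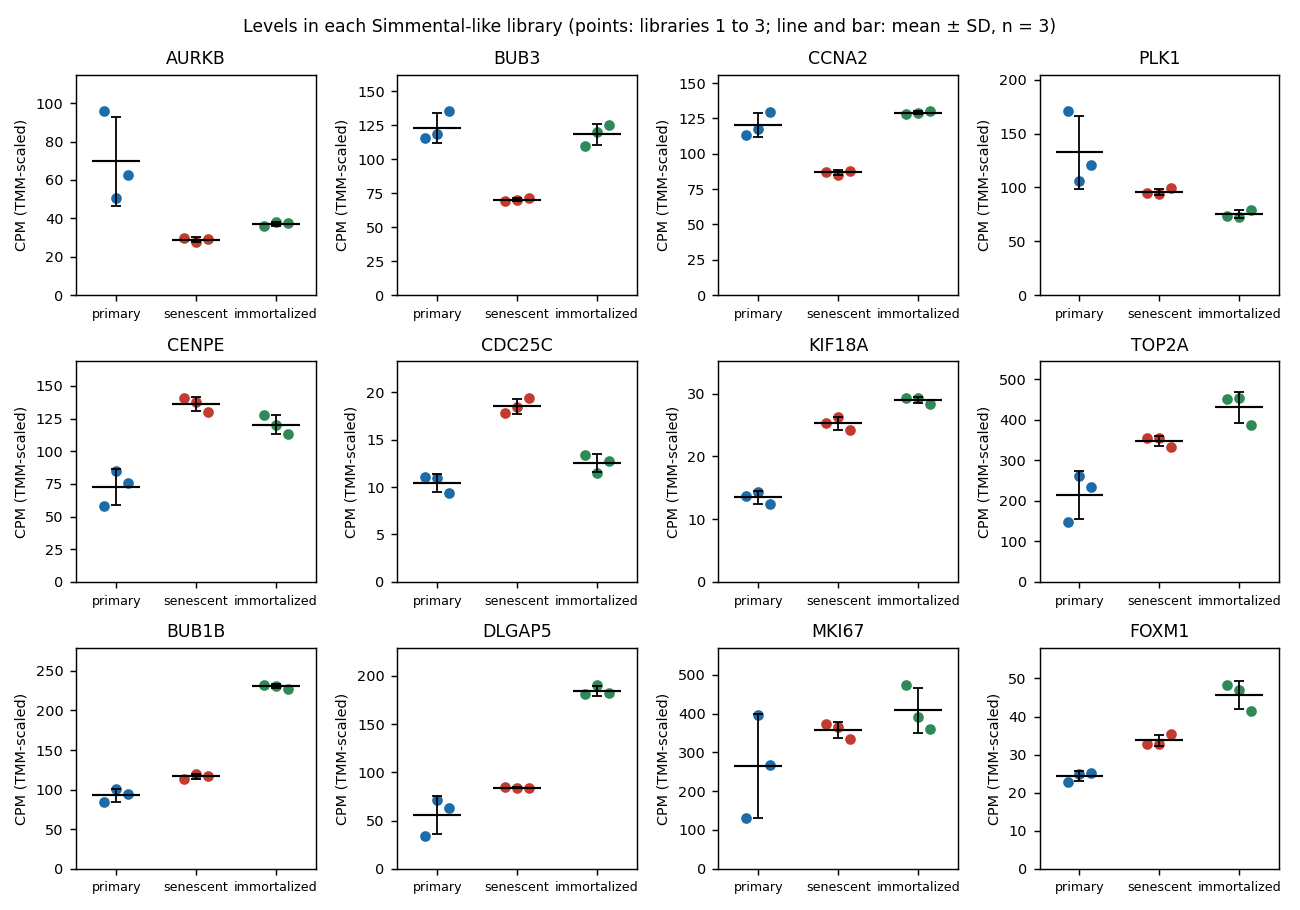
TMM-scaled CPM of 12 mitotic genes in each of the 9 Simmental-like libraries, with the mean ± SD (n = 3) of each stage. AURKB, BUB3 and CCNA2 are lowest in the senescent libraries, CENPE and CDC25C are highest there, and BUB1B and DLGAP5 are highest in the immortalized ones; primary libraries of MKI67 span 131 to 397 CPM.

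The checkpoint genes BUB3 and BUB1B, whose products act in the same inhibitor of the anaphase-promoting complex, went opposite ways in the senescent libraries under TMM scaling, and each lost its call in another fit. BUB3 stood at 115, 118 and 135 CPM in primary, 69.3, 70.2 and 71.1 CPM in senescent and 110, 120 and 125 CPM in immortalized libraries. The senescent libraries were below all others. BUB3 fell by 0.81 ± 0.10 to the senescent stage (adjusted p = 0.000221) and was 0.75 ± 0.10 higher in immortalized than in senescent libraries (adjusted p = 0.000602). By total count its change to the senescent stage was -0.34 (adjusted p = 0.0517). BUB1B, which encodes BUBR1, stood at 83.8, 101 and 93.9 CPM in primary, 113, 120 and 117 CPM in senescent and 232, 231 and 228 CPM in immortalized libraries. The 3 stages did not overlap. BUB1B rose by 0.33 ± 0.09 to the senescent stage (adjusted p = 0.0143), by 0.98 ± 0.09 from there to the immortalized line (adjusted p = 0.000106) and by 1.31 ± 0.09 from primary to immortalized (adjusted p = 7.95e-06). The first of these was 0.04 with the span offset (adjusted p = 0.681) and missed the threshold without senescent library 2 (adjusted p = 0.06).

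The genes of anaphase control also divided. PTTG1, securin, which holds separase inactive, stood at 152, 54.4 and 77.7 CPM in primary, 48.1, 49.0 and 52.7 CPM in senescent and 64.5, 72.3 and 81.9 CPM in immortalized libraries. Primary library 1 was far above the rest. PTTG1 fell by 0.92 ± 0.32 to the senescent stage (adjusted p = 0.0376), by 0.41 without primary library 1 (adjusted p = 0.0331), and its change was -0.39 by total count (adjusted p = 0.212) and -0.58 with the span offset (adjusted p = 0.0592). CDC20, the activator of the anaphase-promoting complex, stood at 278, 169 and 207 CPM in primary, 144, 144 and 158 CPM in senescent and 148, 157 and 174 CPM in immortalized libraries. It fell by 0.55 ± 0.17 to the senescent stage (adjusted p = 0.0234), by 0.35 without primary library 1 (adjusted p = 0.014), and its change was -0.05 by total count (adjusted p = 0.71) and -0.04 with the span offset (adjusted p = 0.632). ESPL1, separase itself, was 0.42 higher in senescent than in primary libraries (adjusted p = 0.00459) and 0.33 higher in immortalized than in primary libraries (adjusted p = 0.0149), the latter not without immortalized library 3 (adjusted p = 0.0628).

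Neither the PTTG1 nor the CDC20 call at the senescent stage held in every fit with a library left out. PTTG1 missed the threshold without any 1 of the 3 senescent (adjusted p = 0.0987, 0.0948 and 0.0790) or the 3 immortalized libraries (adjusted p = 0.0531, 0.0563 and 0.0517). CDC20 missed it without senescent library 1 (adjusted p = 0.0733) or 2 (adjusted p = 0.0721).

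Of 7 centromere and kinetochore genes, 2 were higher (CENPE and CENPF) and 2 lower (CENPK and NUF2) in senescent than in primary libraries under TMM scaling, 28.6% each way beside 28.3% and 29.7% of all genes. By total count 5 of the 7 were higher, 71.4% beside 45.5% of all genes. CENPE, the kinetochore motor that carries chromosomes to the spindle equator, stood at 57.9, 84.6 and 75.5 CPM in primary, 141, 138 and 130 CPM in senescent and 127, 120 and 113 CPM in immortalized libraries. Primary libraries were below all others. CENPE rose by 0.91 ± 0.14 to the senescent stage (adjusted p = 0.000832) and was 0.73 ± 0.14 higher in immortalized than in primary libraries (adjusted p = 0.00259). Its change from senescent to immortalized, -0.18 ± 0.14 (adjusted p = 0.36), passed the threshold without primary library 1 (adjusted p = 0.0486). CENPF, a large protein of the outer kinetochore, stood at 72.8, 144 and 105 CPM in primary, 186, 189 and 165 CPM in senescent and 151, 148 and 140 CPM in immortalized libraries. Its senescent libraries were above all others.

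CENPF rose by 0.74 ± 0.21 to the senescent stage (adjusted p = 0.0164), and missed the threshold without primary library 3, senescent library 1 or senescent library 2 (adjusted p = 0.0516, 0.0507 and 0.0526). CENPK, of the inner kinetochore, fell by 0.47 (adjusted p = 0.0150) and NUF2, of the microtubule-binding NDC80 complex, by 0.27 (adjusted p = 0.0453). By total count the changes of CENPK and NUF2 were 0.00 and 0.21, neither past the threshold. Under TMM scaling CENPK missed it without primary library 3, senescent library 1 or senescent library 3 (adjusted p = 0.0502 to 0.0545), and NUF2 without primary library 3 or any 1 senescent or immortalized library (adjusted p = 0.061 to 0.125). NUF2's complex partners NDC80 and SPC25 had changes of -0.04 and 0.22 to the senescent stage (adjusted p = 0.697 and 0.248). CENPI, an inner kinetochore gene, was 0.68 higher in immortalized than in primary libraries (adjusted p = 0.0195), but not past the threshold without immortalized library 1 or 2 (adjusted p = 0.0562 and 0.0718).

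Of 5 kinesins, KIF18A rose and KIF20A fell in the senescent libraries under TMM scaling, 20% each way beside 28.3% and 29.7% of all genes. KIF18A, the motor that dampens chromosome movement at the spindle equator, stood at 13.7, 14.4 and 12.3 CPM in primary, 25.3, 26.2 and 24.2 CPM in senescent and 29.3, 29.2 and 28.4 CPM in immortalized libraries. The stages did not overlap. KIF18A rose by 0.91 ± 0.10 to the senescent stage (adjusted p = 0.000159) and by 1.10 ± 0.10 from primary to immortalized (adjusted p = 4.56e-05). KIF20A, a motor of the central spindle, stood at 418, 237 and 284 CPM in primary, 216, 211 and 225 CPM in senescent and 236, 269 and 283 CPM in immortalized libraries. Senescent libraries were below all others. KIF20A fell by 0.53 ± 0.19 to the senescent stage (adjusted p = 0.0427), by 0.27 without primary library 1 (adjusted p = 0.0340), and its change was -0.02 by total count (adjusted p = 0.884) and -0.25 with the span offset (adjusted p = 0.0914).

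KIF20A missed the threshold without primary library 3 (adjusted p = 0.0577), without any 1 of the 3 senescent (adjusted p = 0.103, 0.110 and 0.0859) or the 3 immortalized libraries (adjusted p = 0.0551, 0.0633 and 0.0564). KIF23, of the centralspindlin complex, was 0.53 higher in immortalized than in senescent libraries (adjusted p = 0.00186) and 0.74 higher than in primary ones (adjusted p = 0.000155). KIF11, the motor that pushes spindle poles apart, and KIF2C, a microtubule depolymerase, did not pass the test in the 3 comparisons under TMM scaling, with changes from -0.32 to 0.54.

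Of the 4 spindle assembly genes, TPX2 and NUSAP1 were higher in senescent than in primary libraries, and DLGAP5 and NUSAP1 were higher in immortalized libraries than at either earlier stage. Each is a share of 50% under TMM scaling. Of all genes, 28.3% were higher in senescent than primary, 16.4% in immortalized than senescent and 24.9% in immortalized than primary libraries. DLGAP5, which bundles spindle microtubules at kinetochores, stood at 33.5, 71.2 and 63.2 CPM in primary, 84.5, 83.6 and 83.9 CPM in senescent and 181, 191 and 183 CPM in immortalized libraries. The 3 stages did not overlap. DLGAP5 rose by 1.14 ± 0.24 from senescent to immortalized (adjusted p = 0.00662) and by 1.72 ± 0.24 from primary to immortalized (adjusted p = 0.000479), the largest change of the module under TMM scaling. Its change from primary to senescent was 0.58 ± 0.23 (adjusted p = 0.0597). NUSAP1, a microtubule-stabilizing protein, stood at 60.7, 69.5 and 71.8 CPM in primary, 97.0, 94.8 and 97.2 CPM in senescent and 146, 143 and 147 CPM in immortalized libraries. It rose by 0.52 ± 0.09 (adjusted p = 0.00166) to the senescent stage, by 0.59 ± 0.09 (adjusted p = 0.00138) from there to the immortalized line and by 1.11 ± 0.09 (adjusted p = 2.08e-05) over both. The first of these was 0.03 with the span offset (adjusted p = 0.837), not past the threshold. TPX2, which activates AURKA on the spindle, was 0.19 higher in senescent than in primary libraries (adjusted p = 0.0466). Its change was -0.12 with the span offset (adjusted p = 0.371), and TPX2 missed the threshold without primary library 2 or 3 or any 1 senescent or immortalized library (adjusted p = 0.0605 to 0.134). HMMR, a spindle-associated hyaluronan receptor, did not pass the test under TMM scaling, with changes from -0.27 to 0.20.

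Of the 4 cytokinesis genes, ECT2 alone passed the test at the senescent stage under TMM scaling, 25% higher beside 28.3% of all genes. ECT2, the exchange factor that activates RhoA at the cell equator, was 0.37 higher in senescent (adjusted p = 0.0127) and 0.61 higher in immortalized (adjusted p = 0.00112) than in primary libraries, the former not past the threshold without senescent library 1 or 2 (adjusted p = 0.0512 and 0.0518) or with the span offset (0.05, adjusted p = 0.618). PRC1, which bundles the central spindle, was 0.75 higher in immortalized than in primary libraries (adjusted p = 0.0403). That change was 0.44 without primary library 1 (adjusted p = 0.000349) and missed the threshold without primary library 3 or any 1 senescent or immortalized library (adjusted p = 0.0529 to 0.0963). ANLN, anillin, the scaffold of the contractile ring, and RACGAP1, of centralspindlin, varied widely among the primary libraries. ANLN stood at 181, 561 and 397 CPM and RACGAP1 at 41.7, 152 and 115 CPM in primary libraries 1, 2 and 3. Their senescent libraries lay between 417 and 437 CPM for ANLN and between 147 and 157 CPM for RACGAP1. Neither passed the test, with changes to the senescent stage of 0.17 ± 0.33 and 0.56 ± 0.38.

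Among the condensin and chromosome structure genes, SMC2 and TOP2A rose in the senescent libraries and SMC4 did not pass the test. TOP2A, the topoisomerase that untangles sister chromatids, stood at 147, 262 and 235 CPM in primary, 354, 355 and 333 CPM in senescent and 452, 453 and 387 CPM in immortalized libraries. The 3 stages did not overlap. TOP2A rose by 0.69 ± 0.19 to the senescent stage (adjusted p = 0.0151) and by 1.00 ± 0.19 from primary to immortalized (adjusted p = 0.0029). Its change from senescent to immortalized, 0.31 ± 0.19 (adjusted p = 0.253), passed the threshold without primary library 1 (0.30, adjusted p = 0.0116). SMC2, the core condensin ATPase, stood at 30.8, 91.2 and 64.5 CPM in primary, 132, 140 and 121 CPM in senescent and 150, 147 and 126 CPM in immortalized libraries. Primary libraries were below all others, and primary library 1 was the lowest.

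SMC2 rose by 1.07 ± 0.32 to the senescent stage (adjusted p = 0.0207) and by 1.18 ± 0.32 from primary to immortalized (adjusted p = 0.0159). The first missed the threshold without primary library 3, senescent library 1 or senescent library 2 (adjusted p = 0.0553, 0.0533 and 0.0594). SMC4, the partner ATPase of SMC2, stood at 376, 208 and 215 CPM in primary, 223, 225 and 213 CPM in senescent and 263, 265 and 255 CPM in immortalized libraries. Primary library 1 stood apart, and without it the change from primary to immortalized went from -0.03 ± 0.21 (adjusted p = 0.918) to 0.28 (adjusted p = 0.00275). Without that library SMC4 also passed the test between senescent and immortalized libraries (0.23, adjusted p = 0.00498), where its change was 0.24 ± 0.21 (adjusted p = 0.413) with all 9. NCAPH, a condensin I subunit, was 0.40 higher in immortalized than in senescent libraries (adjusted p = 0.0196), but 0.24 by total count (adjusted p = 0.156). That change was not past the threshold without senescent library 1 or 2 or immortalized library 2 or 3 (adjusted p = 0.0511 to 0.0915). NCAPH was also 0.30 higher in immortalized than in primary libraries (adjusted p = 0.0433), a call that the span offset ended. It was also lost without primary library 2 or 3 or any 1 senescent or immortalized library (adjusted p = 0.0501 to 0.154).

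MKI67, whose product Ki-67 coats mitotic chromosomes and is widely used to mark cycling cells, did not pass the test in any comparison. It stood at 131, 397 and 268 CPM in primary, 372, 365 and 335 CPM in senescent and 474, 392 and 360 CPM in immortalized libraries. The senescent libraries lay within the range of the primary ones. Its change was 0.43 ± 0.33 from primary to senescent (adjusted p = 0.287), 0.19 ± 0.33 from senescent to immortalized (adjusted p = 0.691) and 0.62 ± 0.33 from primary to immortalized (adjusted p = 0.148). Without primary library 2 it passed the threshold to the senescent stage (0.84, adjusted p = 0.026) and to the immortalized line (1.03, adjusted p = 0.0125).

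The spread within the primary stage set much of what could be tested. The coefficient of variation of the 45 genes had a median of 13.0% over the primary libraries, with values up to 54.6%, against 3.26% over senescent and 4.18% over immortalized libraries. Over all genes the medians were 27.3%, 5.08% and 8.97%. The difference of primary library 1 from libraries 2 and 3 fell with the genomic span of the gene (RefSeq, first to last base), with Spearman's rho of -0.46 over 10878 genes and -0.48 over the 45 mitotic genes. The change from primary to senescent rose with span, with rho of 0.34 over all genes and 0.58 over the mitotic genes. These correlations are across genes of the same libraries, which are not independent replicates, and are descriptions.

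With all genes divided into 4 bins of equal size by span, the median change from primary to senescent was -0.49, -0.12, 0.17 and 0.52 from the shortest to the longest. The mitotic genes in the same bins had medians of -0.50 (8 genes), 0.03 (13 genes), 0.19 (19 genes) and 0.52 (5 genes). AURKB and PTTG1 are short genes and CENPE and SMC2 long ones. With the span offset, 8 of the 12 higher and 5 of the 10 lower calls at the senescent stage remained. CDC20, CCNA2, PLK1, KIF20A and PTTG1 were the lower genes lost, and BUB1B, NUSAP1, ECT2 and TPX2 the higher ones. CDC25C, CENPE, KIF18A, AURKB and BUB3 kept their calls. With replicate numbers added to that fit as a block, KIF18A missed the threshold. The part of span in the calls beyond that offset was not tested.

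**Figure D4:**
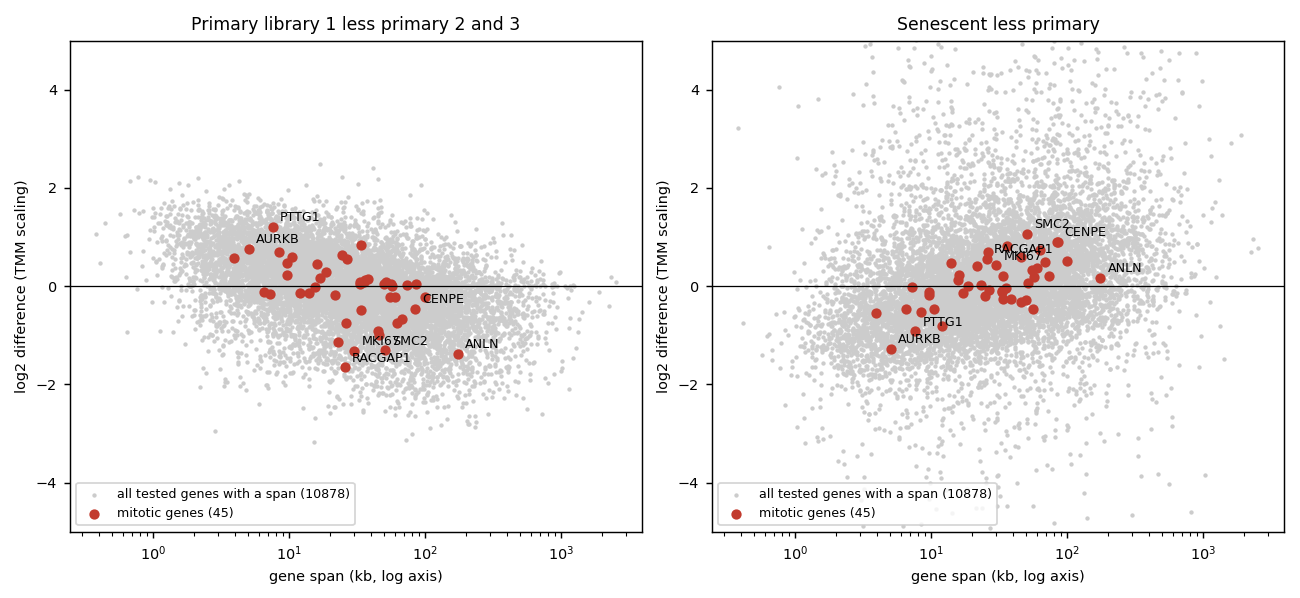
Log2 difference of TMM-scaled levels against gene span in kb (log axis) for primary library 1 less the mean of primary 2 and 3 (left) and for senescent less primary (right). Grey points are the 10878 tested genes with a span (263 lie outside the right panel) and red points the 45 mitotic genes: short genes such as AURKB and PTTG1 lie above 0 on the left and below 0 on the right, and SMC2 the reverse.

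A second list of 114 mitosis genes, of which 107 were found and tested, also held genes called in both directions. At the senescent stage 23 were higher and 28 lower than in primary libraries under TMM scaling, 21.5% and 26.2% beside 28.3% and 29.7% of all genes. By total count 54 were higher and 11 lower, 50.5% and 10.3% beside 45.5% and 14% of all genes, so these shares lay near the background. SPC24, the NDC80 complex subunit next to SPC25, stood at 453, 150 and 225 CPM in primary, 59.1, 61.8 and 66.7 CPM in senescent and 88.4, 104 and 109 CPM in immortalized libraries, and fell by 2.14 ± 0.35 (adjusted p = 0.00128). BORA, the cofactor through which AURKA activates PLK1, fell by 1.47 (adjusted p = 0.00266), the spindle motor KIFC1 by 1.24 (adjusted p = 0.0019) and the inner kinetochore gene CENPH by 1.17 (adjusted p = 0.000202). The cohesin regulator PDS5B rose by 1.35 (adjusted p = 0.00786) and the microtubule polymerase CKAP5 by 1.12 (adjusted p = 0.00221). All 6 kept their direction by total count.

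Among 12 regulators of the DREAM and MuvB complexes, 4 were higher and 0 lower in senescent than in primary libraries under TMM scaling. These shares of 33.3% and 0% stand beside 28.3% and 29.7% of all genes. The median change of the 12 was 0.58, against 0.01 for all genes. By total count 8 of the 12 were higher, 66.7% beside 45.5% of all genes, with changes of 1.92 for RBL2 and 1.52 for LIN52. RBL2, which encodes p130, stood at 35.4, 47.6 and 42.8 CPM in primary, 117, 113 and 119 CPM in senescent and 54.3, 55.4 and 52.1 CPM in immortalized libraries. The senescent libraries were above all others. RBL2 rose by 1.47 ± 0.12 to the senescent stage (adjusted p = 2.4e-05) and was lower by a log2 change of -1.11 ± 0.12 in immortalized than in senescent libraries (adjusted p = 0.00021). The MuvB subunit LIN52 rose by 1.05 (adjusted p = 2.73e-05). The MuvB subunit LIN54 and E2F5, a repressive E2F factor, were the others of the 4 called under TMM scaling, named after their values were seen. E2F5 was also lower in immortalized than in senescent libraries (-0.65, adjusted p = 0.00738).

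In the immortalized libraries 29 of the 107 genes were higher and 3 lower than in senescent ones under TMM scaling, 27.1% and 2.80% beside 16.4% and 16.1% of all genes. Against primary libraries 29 were higher and 16 lower, 27.1% and 15% beside 24.9% and 25.5%. By total count 14 were higher and 8 lower than in senescent libraries, beside 11.5% and 20.6% of all genes, and 44 higher and 4 lower than in primary ones, beside 35% and 16%. Against senescent libraries the largest rises were in CENPQ (1.03), KIF15 (0.99), CDCA3 (0.98) and CENPH (0.96), and CENPL was lower (-0.49). Against primary libraries they were in DEPDC1B (1.80), KIF18B (1.44), the cyclin CCNB3 (1.43) and CKAP5 (1.43). The lowest were BORA (-1.66), SPC24 (-1.46), PMF1 (-0.86) and KIFC1 (-0.85). Adjusted p-values of these genes ran up to 0.0441, that of CDCA3.

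The Holstein-like libraries were taken singly, with no test. In the library names their primary stage is BEF, the senescent stage BF-15-P9 and the immortalized stage BF-15-P23. Primary stage and culture name cannot be told apart here either, while both later stages share BF-15. The names do not say what P9 and P23 mean. These names also carry the word Rerun, which the Simmental-like names lack, and its meaning is not given. Senescent and immortalized libraries of a stage differed in markers of organs, and the 3 primary libraries, which were alike, carried muscle markers. The chi-square per gene was 1.21 to 1.24 between primary libraries, near counting noise, and 210 to 1180 between senescent ones. Skeletal muscle markers took 16.8% to 16.9% of the counts in the 3 primary libraries, and heart markers 5.72% in senescent library 1. Liver markers took 13.5% in senescent library 2, 13.0% in senescent library 3 and 12.9% in immortalized library 1, and kidney markers 1.21% in immortalized library 2. Fibroblast markers were at 6.69% in immortalized library 3 and between 0.0743% and 0.65% in the other 8. Endothelial markers, at 0.498%, and blood and immune markers, at 0.448%, were also highest in that library. In the Simmental-like libraries they reached at most 0.00133% and 0.000587%. The part of these other tissues in the levels below was not tested.

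By total count, the summed level of the 45 mitotic genes was 87.7, 98.8 and 106 CPM in Holstein-like primary, 76.6, 127 and 128 CPM in senescent and 107, 388 and 243 CPM in immortalized libraries. These sums were 8.72- to 44.2-fold below the lowest Simmental-like sum. Immortalized library 3, where fibroblast, endothelial and blood and immune markers were each at their Holstein-like highest, was 13.9-fold below that sum. With TMM scaling over all 18 libraries the Holstein-like sums were between 104 and 294 CPM, and the lowest Simmental-like sum was 3637 CPM. By total count, the lowest Simmental-like level lay above the highest Holstein-like one for 44 of the 45 genes. The margin was small for CENPI (1.00-fold) and BUB3 (1.26-fold). The same share over all genes was not computed, so this count is not read as particular to the mitotic genes. MKI67 was at 0.685, 1.36 and 2.11 CPM in primary, 0.426, 2.48 and 4.65 CPM in senescent and 4.53, 5.64 and 11.6 CPM in immortalized libraries. The primary values rest on 1, 2 and 3 counts, and there 22, 27 and 22 of the 45 genes had no count, which allows levels of up to 2.05 to 2.11 CPM. CDK1, CCNB1, AURKB and FOXM1 had 0 counts in all 3 primary libraries and at most 3.51 CPM in any Holstein-like library.

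Of the 45 genes, 34 were under 10 CPM in all 9 Holstein-like libraries and 11 were above it in at least 1. The exception to the order of the lines was KIF23, at 155 CPM in immortalized library 2 (95% Poisson interval 147 to 162, counting error only) and at most 6.37 CPM in the other 8. KIF23 lies next to PAQR5 and RPLP1 in the RefSeq order of genes. PAQR5 was at 72.3 CPM in that library and at most 11.4 CPM in the others. RPLP1 was at 717 CPM in that library and between 426 and 2226 CPM in the other Holstein-like libraries. TPX2 was at 23.3, 30.7 and 34.4 CPM in the 3 primary libraries, where its neighbour MYLK2, the skeletal muscle myosin light chain kinase, was at 1092, 1117 and 1132 CPM. In senescent libraries TPX2 was at 1.99, 26.6 and 15.2 CPM, with MYLK2 at 4.05 CPM in library 1 and 0 counts in libraries 2 and 3. Whether reads of neighbouring genes entered these counts was not tested. BUB3, which also serves outside mitosis, was between 9.13 and 63.5 CPM, CENPI between 6.14 and 16.7 CPM and SMC4 between 6.88 and 26.4 CPM over the 9 libraries.

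**Figure D5:**
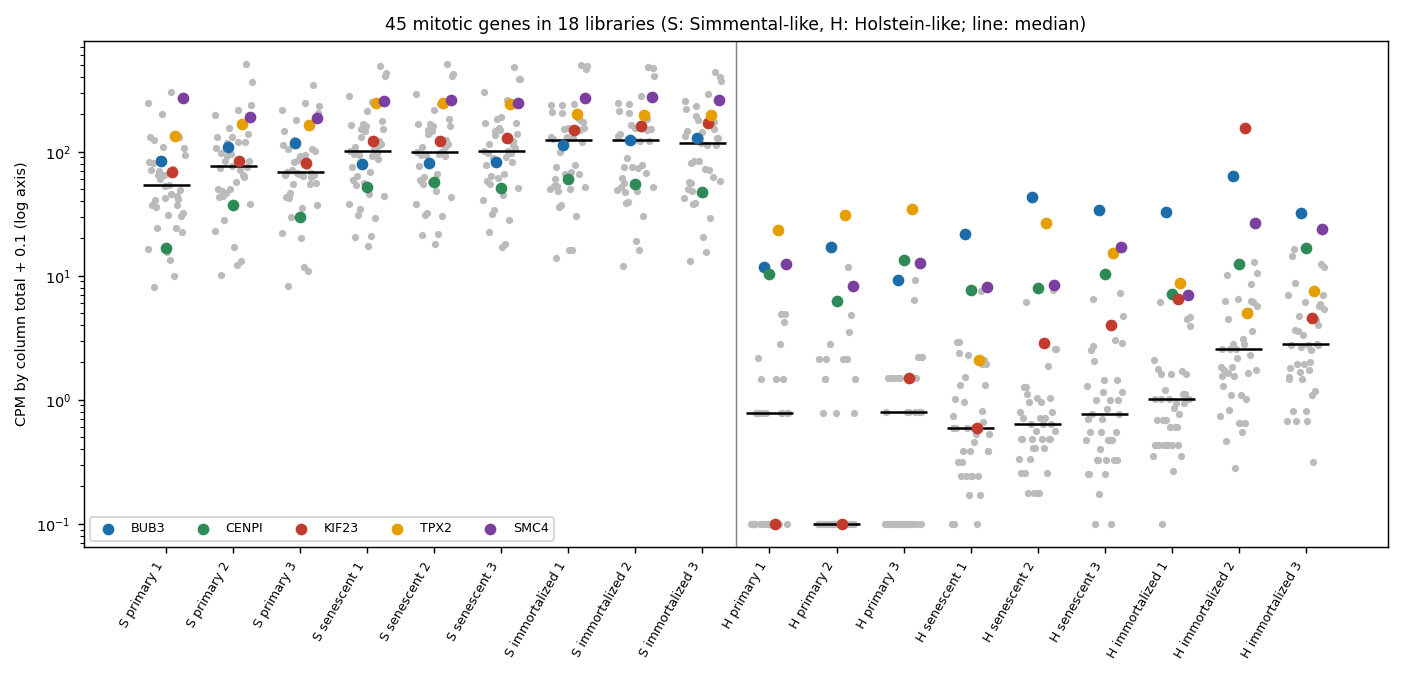
CPM by column total plus 0.1 (log axis) of the 45 mitotic genes in each of the 18 libraries, Simmental-like (S) left and Holstein-like (H) right, with a line at the median of each library and 5 genes in colour. Nearly all genes lie lower in the Holstein-like libraries, and KIF23 in immortalized library 2 reaches the Simmental-like range.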

How the data were processed

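RNA was measured in 18 libraries, 3 per line and stage. Libraries were made with a NEBNext Ultra II kit and sequenced on a NextSeq in single-end mode, per the labels' protocols. The authors deposited expected counts per gene, merged from salmon, and the genome build was UMD3.1, per the submitters' processing notes. For the aligner, salmon version, annotation release and strand setting: not given in the sources used here. Counts were rounded to whole numbers. Samples were grouped by their source names. The 9 Simmental-like libraries were fitted together with edgeR 4.0.16 (R 4.3.3): TMM scaling, filterByExpr by stage, a robust quasi-likelihood fit and Benjamini-Hochberg adjustment over 13099 genes with a threshold of 0.05. SE was taken as the absolute log2 change divided by the root of the F statistic. CPM by column total is the count over the library's total count. Intervals in Holstein-like libraries are exact Poisson at 95% and 0 counts allow up to 3 counts, both for counting error only. The steps were tested on simulated data.

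The members and lists were chosen with earlier results of these data known. Genes were named by rule: a fixed set of 12 (11 found, without MAD2L1), the 6 largest calls per direction and comparison, and of the second list the 4 largest. So that every member is accounted for, the others are given by role with single values, outside this rule. Alternatives were total-count, RLE and upper-quartile scaling, 2 other filters (none, and 5 CPM in 3 libraries), DESeq2 1.42.0, voom in limma 3.58.1, the 6 libraries compared, a 1.5-fold minimum, replicate numbers as a block, senescent libraries 1 and 2 as 1 sample and leaving out each library. An offset on gene span was added after seeing the data. Spans, names and neighbours come from a RefSeq table of another assembly (ARS-UCD2.0), so no coordinates are given. No sequence was used.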

Additional observations from a re-analysis of the deposited data

How the results depend on the processing

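Counts of mitotic genes called moved with several choices. Shares of all genes are given above for TMM and total-count scaling only. For the other settings they are not set beside these counts, so the moves are not read as particular to the mitotic genes. Genes higher in senescent than in primary libraries numbered 12, and 28 by total count, 3 against a 1.5-fold minimum, 7 with the gene span offset and the replicate block, and 7 to 15 with a library left out (7 without senescent replicate 2). Genes lower there numbered 10, and 1 by total count, 6 by upper quartile, 4 in the 6 libraries compared, 2 against a 1.5-fold minimum, 5 with the replicate block, 4 with senescent libraries 1 and 2 as 1 sample, and 3 to 12 with a library left out. That count was 6 without primary replicate 3, 3, 4 and 4 without each senescent library and 6, 5 and 6 without each immortalized one. Genes higher in immortalized than in senescent libraries numbered 12, and 24 in the 6 libraries compared, 1 against a 1.5-fold minimum and 10 to 22 with a library left out (22 without primary replicate 1). Genes lower there numbered 2, and 6 by total count, 4 by upper quartile, 4 by DESeq2, 9 in the 6 libraries compared, 0 against a 1.5-fold minimum, 5 with the span offset, 4 with the span offset and the replicate block, 1 with senescent libraries 1 and 2 as 1 sample, and 1 to 9 with a library left out (9 and 4 without primary replicates 1 and 2, 1 without any senescent or immortalized one). Genes higher in immortalized than in primary libraries numbered 17, and 26 by total count, 11 in the 6 libraries compared and 6 against a 1.5-fold minimum. Genes lower there numbered 3, and 5 by DESeq2, 0 against a 1.5-fold minimum and 3 to 7 with a library left out (7 without primary replicate 2).

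By total count the sign differed for 15 of the 45 genes from primary to senescent, 5 from senescent to immortalized and 9 from primary to immortalized, the first with CCNB1 (0.29), PLK1 (0.028) and MYBL2 (0.41). For SMC4 from primary to immortalized it turned to 0.28 without primary replicate 1, in a range of -0.18 to 0.28. Past the threshold in every setting run were CDC25C and CENPE (higher) and AURKB (lower) from primary to senescent, BUB1B from senescent to immortalized, and FOXM1, BUB1B, KIF18A, DLGAP5, NUSAP1 and TOP2A from primary to immortalized. Same-numbered libraries did not deviate together (correlations of -0.50 to 0.18), so the numbers are not taken to pair samples. With the replicate block 11 were higher and 5 lower at the senescent stage, 12 and 2 from senescent to immortalized, and 16 and 3 from primary to immortalized. The planned offsets on protein length were not run, as no lengths were at hand. Depth limits the Holstein-like primary libraries, where most mitotic genes had 3 counts or fewer.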

Other observations

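Within a library, the ratio of one gene to a partner in the same complex or step does not depend on the scale. The pairs were chosen after the values were seen, and the ratios are given as log2 values with the SD over 3 libraries and no test. AURKB against BIRC5, both subunits of the chromosomal passenger complex, was at -0.96 ± 0.54 in primary, -2.16 ± 0.06 in senescent and -2.39 ± 0.08 in immortalized Simmental-like libraries. BUB1B against BUB3 was at -0.41 ± 0.15, 0.73 ± 0.04 and 0.97 ± 0.11. PTTG1 against ESPL1, securin against separase, was at -0.17 ± 0.86, -1.38 ± 0.03 and -0.75 ± 0.14, with primary library 1 at 0.77 and the other primary libraries at -0.94 and -0.35. SMC2 against SMC4, the ATPases of condensin, was at -2.18 ± 1.27, -0.75 ± 0.07 and -0.90 ± 0.11, with primary library 1 at -3.61. CDC25C against CDC25B was at -3.10 ± 0.23, -2.16 ± 0.05 and -2.20 ± 0.13, so the lower level of both genes in immortalized than in senescent libraries left their ratio nearly as it was. CCNB2 against CCNB1 was at -1.15 ± 0.27, -1.13 ± 0.01 and -0.64 ± 0.09. In the pairs of AURKB, BUB1B, PTTG1, SMC2 and CDC25C no senescent library overlapped the primary ones, and in that of CCNB2 they did. Given how the pairs were chosen, this count says nothing about other pairs. Partners differed in gene span, at 5.09 and 7.29 kb for AURKB and BIRC5 and 55.1 and 12.1 kb for BUB1B and BUB3. Spans were 7.63 and 21.8 kb for PTTG1 and ESPL1, and 50.9 and 33.8 kb for SMC2 and SMC4. CDC25C and CDC25B span 35.9 and 9.6 kb, and CCNB2 and CCNB1 24.7 and 9.7 kb. The part of span in these ratios was not tested.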
